A study of Mus musculus with 6 samples.

Results

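Killer lymphocytes destroy their targets with the contents of lytic granules, and 6 genes of that machinery are described here in immature thymocytes that lack or carry the heme exporter gene Flvcr1. The genes were Prf1, Gzma, Gzmb, Ctsw, Nkg7 and Klrd1. They were chosen by gene symbol with values of these arrays already known, namely the bright Prf1 probe, the weak signal of the others and the reading of Nkg7 in each genotype. Their levels and their genotype differences are therefore descriptions and carry no test. The platform annotation gave 6 probes to 5 of the 6 genes, out of 45281 probes on each array, and 4 of these 6 probes passed the detection filter that 15448 probes passed in all. Prf1 had 2 probes, while Nkg7, Gzmb, Ctsw and Klrd1 had 1 each. Gzma had 0 probes in that annotation, so no level of it is given.

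Total RNA came from CD4+CD8+ thymocytes sorted by flow cytometry from the thymus of Flvcr-/- mice (3 samples) and Flvcr+/+ mice (3 samples), all on a C57BL/6 background, and each sample was hybridised to 1 Illumina bead array. The labels give no age, sex or means by which Flvcr was deleted, nor whether replicates are different animals, so their spread may in part be technical. Flvcr1 itself averaged 10.16 ± 0.27 (log2 normalised signal, SD, n = 3) in Flvcr-/- and 11.07 ± 0.18 (SD, n = 3) in Flvcr+/+ cells, and its groups did not overlap. Between 15307 and 15792 probes were detected per array, where detected means a deposited detection p under 0.05, and array medians of intensity ran from 126.1 to 149.1. Precision is limited by having 3 arrays per genotype.

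Perforin, the product of Prf1, forms pores in the membrane of a target cell. Granzymes such as those encoded by Gzma and Gzmb are serine proteases that enter through these pores and start cell death. Nkg7 encodes a membrane protein of the lytic granule, Ctsw a cysteine protease found mainly in cytotoxic lymphocytes, and Klrd1 the CD94 chain of NK receptors that recognise a non-classical class I molecule. CD4+CD8+ cells precede the choice of the CD8 lineage, in which most of this program is normally switched on.

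Start regions of 4 of the 6 genes were held by the RefSeq promoter table of build GRCm38.p6, and they are shown because these genes belong to 1 program, of which Prf1 gave a bright signal, Nkg7 a weak one and Gzmb none above background. Each window covers 250 bases before and 50 bases after the annotated start, on the strand of the gene. Capitals mark matches, on either strand, to GGAAGT (the core bound by ETS factors), TGTGGT (bound by Runx factors), GTGTGA (a T-box half-site), CAGCTG (an E-box) and TATAAA (the TATA box). The Prf1 window lies at chr10:61297586-61297885 (plus strand), that of Nkg7 at chr7:43436888-43437187 (plus strand), that of Gzmb at chr14:56262285-56262584 (minus strand) and that of Gzma at chr13:113100932-113101231 (minus strand).
Prf1: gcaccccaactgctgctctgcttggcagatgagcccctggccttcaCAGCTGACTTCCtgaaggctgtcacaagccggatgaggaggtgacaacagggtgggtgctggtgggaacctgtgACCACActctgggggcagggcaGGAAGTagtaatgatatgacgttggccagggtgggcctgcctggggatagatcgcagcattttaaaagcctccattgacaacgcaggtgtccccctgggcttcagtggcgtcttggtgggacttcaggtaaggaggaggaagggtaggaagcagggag
Nkg7: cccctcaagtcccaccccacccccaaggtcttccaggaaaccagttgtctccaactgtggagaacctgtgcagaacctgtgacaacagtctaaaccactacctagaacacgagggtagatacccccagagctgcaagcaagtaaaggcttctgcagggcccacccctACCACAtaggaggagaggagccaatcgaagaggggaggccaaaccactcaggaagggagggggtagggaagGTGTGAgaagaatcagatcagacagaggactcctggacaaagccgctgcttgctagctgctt
Gzmb: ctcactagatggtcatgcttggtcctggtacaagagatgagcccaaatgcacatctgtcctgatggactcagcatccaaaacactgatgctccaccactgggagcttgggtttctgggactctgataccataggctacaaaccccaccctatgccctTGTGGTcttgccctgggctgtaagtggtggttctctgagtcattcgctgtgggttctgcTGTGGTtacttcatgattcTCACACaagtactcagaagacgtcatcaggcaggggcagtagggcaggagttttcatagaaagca
Gzma: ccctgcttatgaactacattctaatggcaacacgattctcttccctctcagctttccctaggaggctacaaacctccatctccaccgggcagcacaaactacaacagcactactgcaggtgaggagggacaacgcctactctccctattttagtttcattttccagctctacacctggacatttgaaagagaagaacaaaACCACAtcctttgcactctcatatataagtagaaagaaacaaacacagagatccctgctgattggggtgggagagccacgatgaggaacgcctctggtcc

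TGTGGT was present in all 4 windows and in 16.8% of 32851 RefSeq windows of the same length. Relative to the annotated start, it began at -130 in Prf1, -83 in Nkg7 and -50 in Gzma, each time on the opposite strand, and at -93 and -34 in Gzmb. GGAAGT matched 2 times in Prf1 and in 0 of the other 3 windows (23.8% of all windows hold it). One of these matches directly follows the single CAGCTG, which 16.3% of windows hold, so the 2 appear as 1 run of capitals. GTGTGA was found in Nkg7 and Gzmb (14.5% of all windows) and TATAAA in 0 of the 4 (13.6%). The letters were chosen with these sequences in view, and a match describes the window, not binding of a factor.

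Prf1 gave a strong signal on every array of both genotypes through 1 of its 2 probes. Probe ILMN_2960700 had intensities of 1278, 1708 and 1834 in Flvcr-/- cells (replicates 1, 2 and 3), against 2046, 1807 and 1300 in Flvcr+/+ cells. These intensities were between 9.45 and 14.8 times the median of their own array, and the 2 groups overlapped. After background correction and quantile normalisation the probe averaged 10.54 ± 0.26 (log2, SD, n = 3) in Flvcr-/- and 10.61 ± 0.24 (SD, n = 3) in Flvcr+/+ cells. The log2 difference was -0.08 (SE 0.163), with a 95% interval of -0.42 to 0.27, which runs from 0.745-fold to 1.21-fold. Its sign turned positive without Flvcr+/+ replicate 1 (0.05) or Flvcr-/- replicate 1 (0.07), and it was -0.18 with array weights.

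The other Prf1 probe sat at the limit of detection. Probe ILMN_1228333 read 140.4, 168.2 and 146.9 in Flvcr-/- cells, against 162.6, 176.2 and 126.1 in Flvcr+/+ cells. It was detected on Flvcr-/- replicate 2 and on Flvcr+/+ replicates 1 and 2, and its groups overlapped. Its log2 difference was 0.02 (SE 0.338), and the value ran from -0.30 to 0.19 over the alternatives. Both probes carry the same RefSeq transcript in the annotation, and the files used here do not say where on it each probe lies. The bright reading of perforin therefore rests on 1 probe, and signals of different probes do not measure relative transcript amounts.

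**Figure D1:**
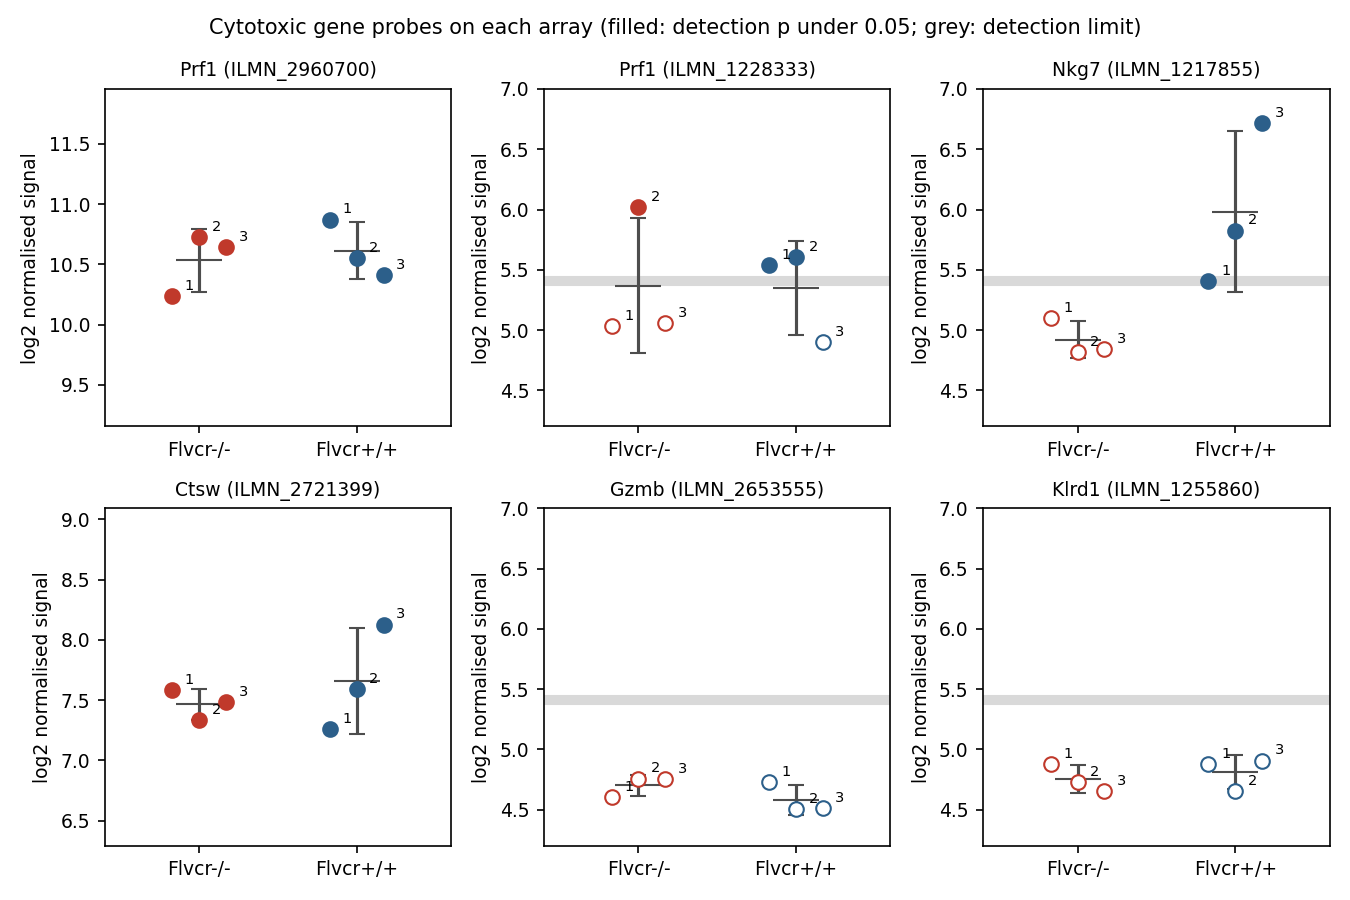
Log2 normalised signal of the 6 probes in Flvcr-/- (left, red) and Flvcr+/+ (right, blue) thymocytes, 1 point per array with its replicate number, and the mean with SD of 3 arrays. Filled points were detected, and the grey band spans the lowest detected signal of the 6 arrays: all 3 Nkg7 points of Flvcr-/- cells lie below it and all Gzmb and Klrd1 points do, while the bright Prf1 probe overlaps between genotypes.

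Nkg7, the granule membrane gene, was weak in Flvcr+/+ cells and below detection in Flvcr-/- cells. It read lower in each Flvcr-/- sample than in any Flvcr+/+ sample. Its probe had intensities of 142.6, 125.3 and 138.3 in Flvcr-/- cells, with detection p-values of 0.130, 0.333 and 0.280. In Flvcr+/+ cells it read 157.8, 185.6 and 197.5, with detection p-values of 0.0481, 0.0118 and 0.00107. It was thus detected on 0 of 3 Flvcr-/- and 3 of 3 Flvcr+/+ arrays, and Flvcr+/+ replicate 1 lay just inside the threshold. At a detection p under 0.01 it was detected on 1 array. The normalised signal averaged 4.92 ± 0.15 (log2, SD, n = 3) in Flvcr-/- and 5.98 ± 0.67 (SD, n = 3) in Flvcr+/+ cells.

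With the Flvcr-/- signal below detection, the Nkg7 difference has only a bound, for which each Flvcr-/- array contributed the weakest signal of any detected probe in place of the lower Nkg7 reading. The mean Flvcr+/+ signal of Nkg7 was 1.49-fold above that Flvcr-/- limit on the background-corrected scale and 1.16-fold above it without background correction. This bound holds for the observed means and leaves out the spread between arrays. On the corrected log2 scale, Flvcr+/+ replicate 1 (5.405) lay below the mean Flvcr-/- limit (5.409). The corrected bound rested on the brightest sample, Flvcr+/+ replicate 3, without which it was 1.15-fold. The fitted log2 difference, which uses Flvcr-/- readings not above background, was -1.06 (SE 0.335). Without background correction the fitted difference was -0.39, and over all 15 alternatives it lay between -1.35 and -0.39. Several alternatives leave the value unchanged and the groups do not overlap, so its sign below 0 each time is not support. Leaving out Flvcr+/+ replicate 3 gave -0.71. The probe passed the detection filter only through the Flvcr+/+ arrays, so without any 1 of them it no longer passed.

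Ctsw, the lymphocyte cathepsin gene, was detected on all 6 arrays and did not separate the genotypes. Its intensities were 296.5, 260.9 and 310.0 in Flvcr-/- cells, against 276.4, 330.0 and 349.6 in Flvcr+/+ cells. The groups overlapped. The means were 7.47 ± 0.13 (log2, SD, n = 3) in Flvcr-/- and 7.66 ± 0.44 (SD, n = 3) in Flvcr+/+ cells, with a log2 difference of -0.19 (SE 0.230) and a 95% interval of -0.68 to 0.30. Its sign turned positive without Flvcr+/+ replicate 3 (0.04) and with array weights (0.01).

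Gzmb, the granzyme that cleaves after aspartate, and Klrd1 were detected on 0 of 6 arrays. The Gzmb probe read 120.3, 122.5 and 133.8 in Flvcr-/- cells, against 129.8, 124.5 and 105.3 in Flvcr+/+ cells. Detection p-values were between 0.396 and 0.903, so no array stood out. The Klrd1 probe read 134.3, 120.9 and 128.5 in Flvcr-/- cells, against 137.3, 136.1 and 126.3 in Flvcr+/+ cells. Its detection p-values were between 0.234 and 0.606. No fold is given for either gene, because both groups were below detection. A probe without signal does not show that the transcript was missing, since the probes of Cd8a were also detected on 0 arrays of these CD8+ cells.

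Of the 4 probes that passed the filter, 2 of them of Prf1, 1 had groups that did not overlap, that of Nkg7. Of all 8808 genes measured, each read by its brightest kept probe, 9.59% did so. Nkg7 passed the filter only through the Flvcr+/+ arrays, where it reads higher, and its Flvcr-/- readings were below detection. That favours groups that do not overlap, so its separation is not support. None of the 4 passed an adjusted p of 0.05 in the limma fit, where 0.148% of genes passed (2 higher and 11 lower in Flvcr-/- cells, and 4 higher and 11 lower with scaling to a common median). Both counts describe genes that were listed with this contrast known.

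Most probes of the remaining granzymes and of the NK lectin receptors gave no signal above background in either genotype. Of 10 probes for 8 other granzyme genes, 8 were detected on 0 arrays. Gzmm, a granzyme of innate cytotoxic cells, was detected on 2 Flvcr-/- and 2 Flvcr+/+ arrays (intensities between 134.5 and 181.3), and Gzmn on 1 array of each genotype. Of 49 probes for 25 other Klr genes, which encode lectin-like receptors, 46 were detected on 0 arrays. The exceptions were 1 of 5 probes of Klrb1b, with 2 arrays of each genotype, and single Flvcr+/+ arrays for 1 probe each of Klra2 and Klra3. Gzmm, Gzmn and the Klr exceptions were named after their values were seen.

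**Figure D2:**
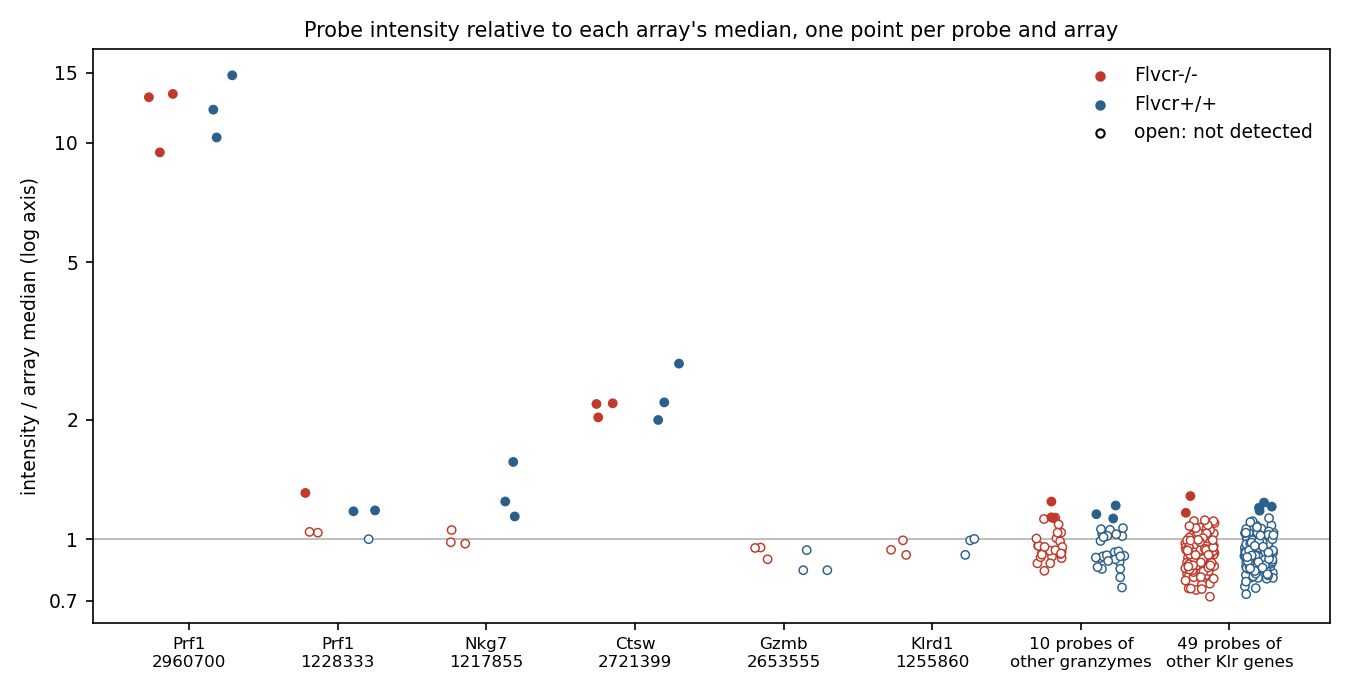
Intensity of each probe divided by the median of its array (log axis), 1 point per probe and array, with Flvcr-/- in red on the left and Flvcr+/+ in blue on the right of each column. Only the bright Prf1 probe (9.45 to 14.8) and Ctsw (2.00 to 2.77) stand clear of 1 on all 6 arrays, and probes of other granzymes and Klr genes lie between 0.716 and 1.28.

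The detected genes of the wider granule pathway included lysosomal and secretory genes such as Lamp1 and Rab7, and 0 of them passed the test. In 4 lists of related genes, 55 of 58 had a probe, 23 passed the detection filter and 27 were detected on 0 arrays. Of the 23, 0 passed an adjusted p of 0.05 in limma in either direction, where 0.148% of all 8808 genes passed. An unadjusted p under 0.05 was found for 1 of the 23 (408 of all 8808 genes had one). Between genotypes 12 read higher and 11 lower in Flvcr-/- cells, with a median log2 difference of 0.02 (0.01 over all genes). The count of 0 held under all 16 alternatives. It is near the share over all genes, so it is not a result about this pathway.

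Among granule effectors and their partners, 6 of 17 genes were measured, and 5 read higher and 1 lower in Flvcr-/- cells. Serpinb6b, an intracellular protease inhibitor, averaged 7.81 ± 0.22 in Flvcr-/- and 7.49 ± 0.26 in Flvcr+/+ cells (log2, SD, n = 3 each), a difference of 0.31 (SE 0.210). Ctsc, the dipeptidyl peptidase that activates granzymes, differed by 0.22 (SE 0.152), and Srgn, the proteoglycan core of the granule, by 0.17 (SE 0.147). The lysosomal membrane genes Lamp2 and Lamp1 stood at 0.08 and -0.02. Fasl and Ifng, effectors outside the granule, were detected on 0 arrays.

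In the release machinery 9 of 10 genes were measured, each but Syt7. Stx11, a syntaxin needed for granule fusion, read 7.60, 7.58 and 7.88 in Flvcr-/- cells, against 7.25, 7.19 and 7.17 in Flvcr+/+ cells (log2). Its groups did not overlap, which held for 1 of the 23 related genes (4.35%) and for 9.59% of all 8808 genes. Its log2 difference of 0.48 (SE 0.195) was the 1 with an unadjusted p under 0.05 (0.0260), but the adjusted p of limma was 0.9997. Lyst, the lysosomal trafficking regulator mutated in beige mice, stood at -0.31 (SE 0.246), the late endosomal GTPase gene Rab7 at 0.15 and the syntaxin-binding gene Stxbp2 at -0.03.

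Of the transcription factors of cytotoxic cells, Ets1, Stat4, Id2, Runx1 and Mef2d were measured. Tbx21, Eomes, Runx3, Prdm1 and Zeb2, which drive the effector program, were detected on 0 arrays. Ets1 averaged 13.95 ± 0.05 in Flvcr-/- and 13.95 ± 0.14 in Flvcr+/+ cells (log2, SD, n = 3 each). Runx1 stood at -0.21 (SE 0.209), Mef2d at -0.27 (SE 0.313) and Stat4, the interleukin-12 signal transducer, at 0.11 (SE 0.163). Of the NK receptors and adaptors, 3 of 20 genes were measured. Cd226, an activating adhesion receptor, stood at -0.49 (SE 0.297), the receptor gene Cd160 at 0.04 and Hcst, the adaptor of the NKG2D receptor, at 0.08, none of them past the test.

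**Figure D3:**
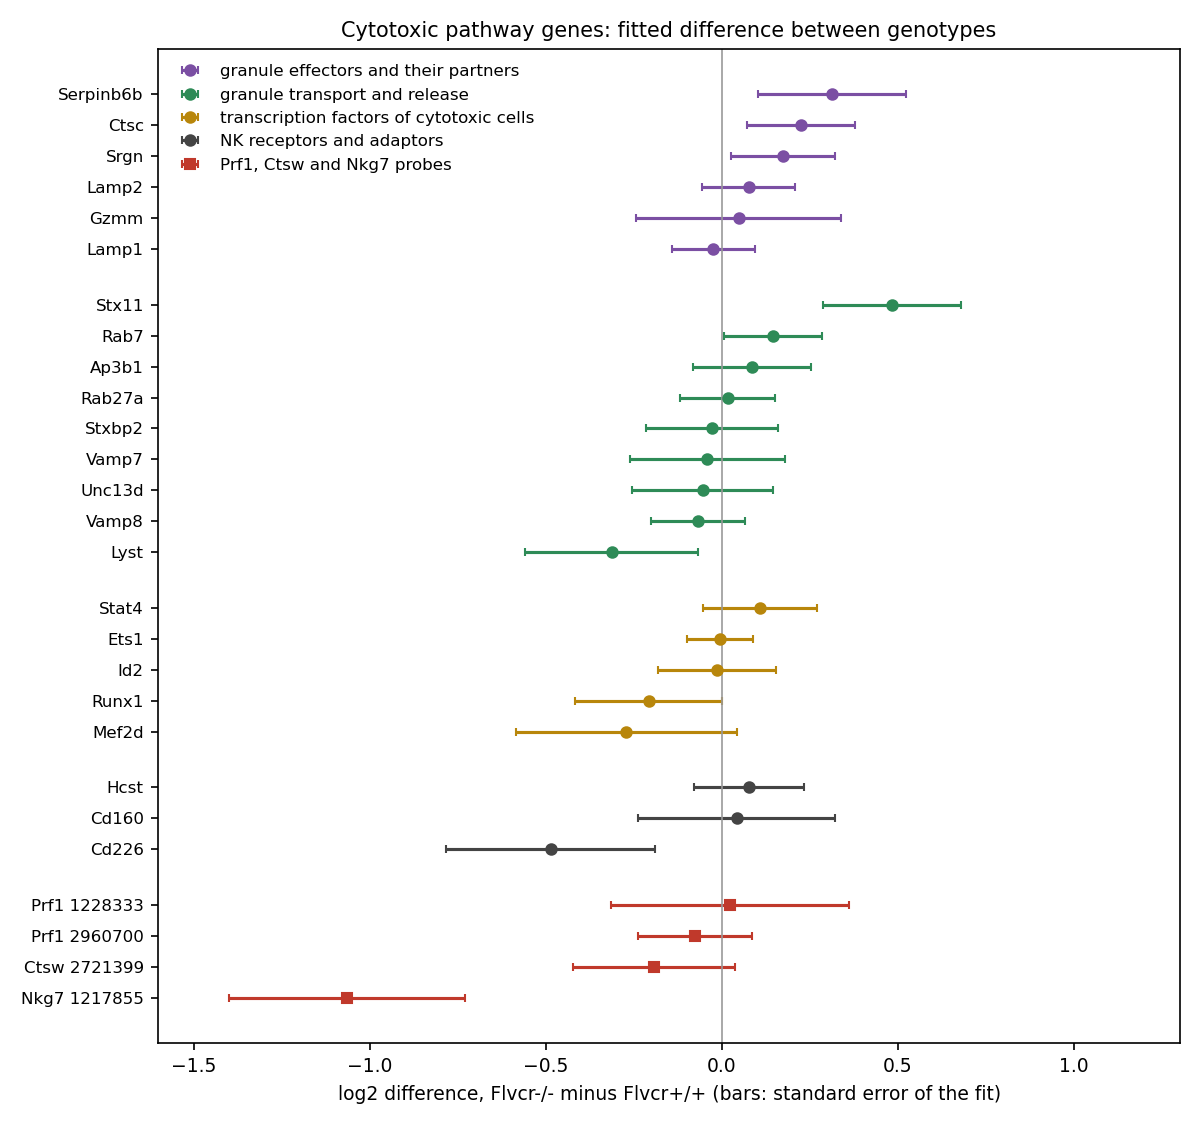
Log2 difference, Flvcr-/- minus Flvcr+/+, with the standard error of the fit for 23 related genes in 4 lists (circles) and for the 4 measured probes of Prf1, Ctsw and Nkg7 (red squares). The related genes run from 0.48 (Stx11) to -0.49 (Cd226), and the Nkg7 square, fitted at -1.06 from Flvcr-/- readings below detection, is -0.39 without background correction.

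The bright Prf1 probe peaked on Flvcr+/+ replicate 1, and Nkg7 and Ctsw on Flvcr+/+ replicate 3. That Prf1 probe was lowest on Flvcr-/- replicate 1 (10.24) and Flvcr+/+ replicate 3 (10.41), and between 10.55 and 10.87 on the other 4 arrays (log2). Those 2 arrays were also the 2 with low Xist, at 4.73 and 4.72 against 9.49 to 9.99 elsewhere, and the only ones on which the Y-linked gene Eif2s3y was detected (9.99 and 10.12). Within the 4 Xist-high arrays, Prf1 averaged 10.69 in Flvcr-/- and 10.71 in Flvcr+/+ cells (2 arrays each), a difference of -0.03. Within the 2 Xist-low arrays it was 10.24 in Flvcr-/- and 10.41 in Flvcr+/+ cells, a difference of -0.17. The erythroid marker Hba-a1 also varied, at 7.79, 11.89 and 12.41 in Flvcr-/- cells, against 11.97, 9.83 and 10.20 in Flvcr+/+ cells (log2). The part of sex or of erythroid RNA in these levels was not tested.

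Nkg7 and Ctsw shared their highest array, Flvcr+/+ replicate 3, at 6.72 and 8.13. Over the 6 arrays Pearson's r was 0.83 between Nkg7 and Ctsw, -0.66 between Ctsw and the bright Prf1 probe and -0.30 between Nkg7 and that probe, given as descriptions since all values share the same 6 arrays. The Nkg7 reading averaged 4.83 in Flvcr-/- and 5.62 in Flvcr+/+ cells within the 4 Xist-high arrays, and was 5.10 in Flvcr-/- and 6.72 in Flvcr+/+ cells within the 2 Xist-low arrays. All these Flvcr-/- readings were below detection, so no difference is given for them. For Ctsw the genotype difference was -0.02 within the Xist-high arrays, -0.54 within the Xist-low arrays and -0.17 with Xist as a covariate.

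**Figure D4:**
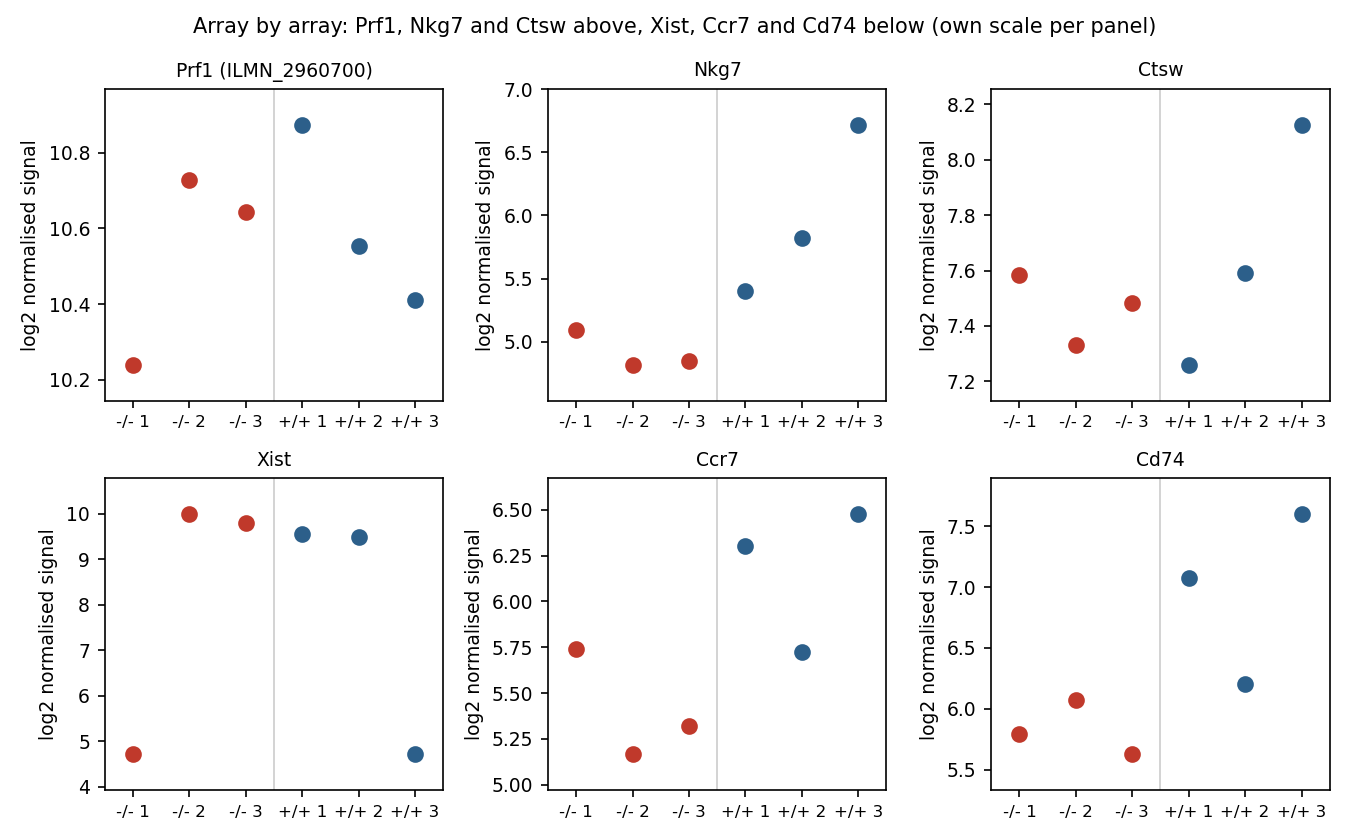
Log2 normalised signal on each array, Flvcr-/- replicates on the left (red) and Flvcr+/+ replicates on the right (blue), with a separate scale in each panel. Prf1 is lowest on the 2 arrays with low Xist. Nkg7 and Ctsw are highest on Flvcr+/+ replicate 3, as are Ccr7 (6.48) and Cd74 (7.60). Of the other measured mature CD8 and dendritic cell markers, Il7r, H2-Ab1 and Xcr1 also peak on that array. The rest peak elsewhere: Klf2, H2-Eb1 and Bst2 on Flvcr+/+ replicate 1 and Cst3 on Flvcr+/+ replicate 2. Cd8b1 peaks on Flvcr-/- replicate 1 and Siglech on Flvcr-/- replicate 2.

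The sorted cells carried the markers of their stage. Of 12 double-positive markers 11 had a probe and 9 were measured, Cd8b1 (14.83 in Flvcr-/- and 14.88 in Flvcr+/+ cells) and Rag1 (13.67 in Flvcr-/- and 13.80 in Flvcr+/+ cells) among them, while Cd8a and Ccr9 were detected on 0 arrays. The mean of the 9 ran from 11.42 to 11.57 on Flvcr-/- arrays and from 11.48 to 11.58 on Flvcr+/+ arrays. Of 10 NK cell markers 9 had a probe and 0 passed the filter, and 7 of them, Ncr1, Klrb1c and Tyrobp included, were detected on 0 arrays. Of 10 markers of innate-like T cells, 0 passed and 6 were detected on 0 arrays, and of 8 mast cell markers 1 passed.

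Measured markers of mature CD8 cells and of dendritic cells also read lower in Flvcr-/- cells, several of them by little. Beside Nkg7 itself, 4 of the mature CD8 and egress markers were measured, namely Ccr7, Klf2, Il7r and Cd8b1. All 4 read lower in Flvcr-/- cells, as did 4244 of all 8808 genes. Cd8b1, the brightest of them and also a double-positive marker, differed by -0.05 (SE 0.088), and its groups overlapped. The summed log2 signal of the 4 was 31.6 to 32.7 on Flvcr-/- arrays and 33.1 to 34.6 on Flvcr+/+ arrays. Without Il7r, which passed the filter only through the Flvcr+/+ arrays, the sum of the other 3 was 26.2 to 27.4 on Flvcr-/- arrays and 27.4 to 29.2 on Flvcr+/+ arrays, and the groups overlapped. The homing receptor gene Ccr7 read 5.74, 5.17 and 5.32 in Flvcr-/- cells, against 6.30, 5.72 and 6.48 in Flvcr+/+ cells. Ccr7 was detected on 1 Flvcr-/- and 3 Flvcr+/+ arrays, and its groups overlapped. Its readings on Flvcr-/- replicates 2 and 3 were below detection. The Flvcr+/+ arrays alone were enough for Ccr7 to pass the filter, and it stays in both sums. Klf2, a factor of thymic egress, stood at -0.67, and Il7r, like Nkg7, was detected on 0 Flvcr-/- and 3 Flvcr+/+ arrays. S1pr1 and Runx3 were detected on 0 arrays.

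All 7 measured dendritic cell markers of 10 read lower in Flvcr-/- cells (4244 of all 8808 genes did), with a median log2 difference of -0.13. Their summed log2 signals were 51.7 to 54.7 on Flvcr-/- and 54.2 to 56.1 on Flvcr+/+ arrays, and the groups overlapped. The differences ran from -0.07 for Cst3 to -1.13 (SE 0.315) for Cd74, the class II invariant chain. Of the 7 measured, only Cd74 had groups that did not overlap (9.59% of all 8808 genes had such groups). Itgax and Flt3 were detected on 0 arrays. Of 3 measured B and plasma cell markers, Igkc, the kappa light chain constant region, was lower by a log2 difference of -3.36 (limma adjusted p = 5.09e-07). The other 2 did not pass the test, the B cell receptor gene Cd79b at 0.26 (SE 0.171) and the heavy chain gene Ighm at -0.05 (SE 0.0962), while Ms4a1, Pax5 and Jchain were detected on 0 arrays. None of the mature CD8 and dendritic cell markers passed an adjusted p of 0.05. In sorted bulk samples, fewer cells of a type and less RNA per cell cannot be told apart, and the part of other cells in the Nkg7 reading was not tested.

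By Pearson's r over the 6 arrays, the genes most like the bright Prf1 probe were Zfp933 (0.99), Chka (0.98), Lyz1 (0.97), Mmd (0.97) and Hykk (0.96), and 51 of 8807 genes exceeded 0.9. Those most like Nkg7 were Rac2 (0.97), Med11 (0.96), Med20 (0.96), Lat2 (0.96) and Laptm4a (0.96), with 34 genes above 0.9. For Ctsw they were Lpar1 (0.99), Ruvbl1, Iqgap1 and Tesc (0.98 each) and Inip (0.97), with 47 genes above 0.9. The dim Prf1 probe was matched most closely by Plaa (0.996), Srsf10, Gna11, Cmpk2 and Ahsa1 (0.99 each), with 125 genes above 0.9. The dim Prf1 probe and Nkg7 were each detected on only 3 of the 6 arrays, so their r values rest in part on background readings. The 4 sets of 5 genes did not overlap. High values of r are common over 6 arrays, and no p is given.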

How the data were processed

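Flvcr-/- and Flvcr+/+ groups and replicate numbers came from the sample titles. The deposited table holds linear probe intensities without scaling between arrays and, per the file headers, the detection p-values of all probes. The authors also deposited log2 values, made with lumi per the submitters' processing notes (version not given), which equal the log2 of the quantile-normalised intensities to within 5e-09. Scanner software and genome build are not given in the sources used here.

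In R 4.3.3, limma 3.58.1 corrected, quantile-normalised and log2-transformed the intensities (neqc, offset 16, negative controls inferred from detection). The 15448 probes detected (p under 0.05) on 3 or more arrays entered a linear model (lmFit, then eBayes using the variance trend, 2-sided) with Benjamini-Hochberg adjustment over all of them. A gene was its brightest kept probe. Fold changes on this scale understate those of dim probes. Symbols of the platform annotation (35784 of 45281 probes had 1, 0 had several and 9497 had none) were updated through a RefSeq table of GRCm38.p6.

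The 6 genes, the lists and the motifs were chosen with earlier results of these data known. Named were all listed genes and, in each related list, the 3 genes with the smallest p and the 2 with the highest mean, other genes being chosen after their values were seen, and the 5 genes with the highest r. On simulated arrays with 15493 probes tested, 25.4%, 77.6% and 100% of bright probes changed 1.5-fold, 2-fold and 4-fold were called, with 8 false calls. Only kept probes above the median signal were changed, so these rates do not carry over to Nkg7 or the dim Prf1 probe. Replicate numbers were not treated as pairs. Deviations of same-numbered samples correlated at -0.15, 0.09 and 0.11, and those of differently numbered samples at -0.19 to 0.08. With so few samples these values cannot exclude a pairing.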

Additional observations from a re-analysis of the deposited data

How the results depend on the processing

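Over all genes, 13 passed an adjusted p of 0.05. With array weights the count was 30, without the variance trend 1, and it was 10 to 17 under the other settings that kept all arrays. It ranged from 2 to 12 when 1 array was left out: 4 without Flvcr+/+ replicate 1, 2 without Flvcr+/+ replicate 2, 2 without Flvcr-/- replicate 2 and 3 without Flvcr-/- replicate 3. The cause was not tested, beyond the smaller number of arrays. With the replicate block, which treats samples of the same number as pairs, it was 12. Nkg7 differed by -0.39 without background correction and by -0.39 with the deposited log2 values, which are not background-corrected, against -1.06, and it did not pass the strict filter (detection p under 0.01 on all arrays of a group). Over all 15 alternatives the difference of the bright Prf1 probe lay between -0.18 and 0.07, and that of Ctsw between -0.39 and 0.04. For the dim Prf1 probe it lay between -0.30 and 0.19, so all of these changed sign under some settings. The Xist covariate, the bounds under other settings and the marker sum without Il7r were chosen after seeing the data. Dim probes are limited by the background: at a detection p under 0.01, Nkg7 and the dim Prf1 probe were each detected on 1 array.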
